A study of Mus musculus with 10 samples.

Results

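The chromatin of 6 genes that mark horizontal cells was examined in cultured mouse retina by CUT&Tag for H3K18La and H3K27Ac. The genes were Onecut1, Onecut2, Lhx1, Prox1, Calb1 and Ptf1a. Every peak that the deposited annotation gave to these symbols was taken, in promoters and elsewhere, for 26 of 108253 peaks. Prox1 held 17 of them, Onecut2 held 6, Onecut1 held 2 and Lhx1 held 1, while no peak carried the symbol Calb1 or Ptf1a, so both genes were not analysed here beyond one neighbouring peak. CUT&Tag uses an antibody to tether a transposase at modified histones, and the fragments it cuts free are sequenced.

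Wild-type C57BL/6J mice aged 28 postnatal days gave the retinas, freed of sclera and pigment epithelium. They were kept for 48 hours in Neurobasal-A medium with B27 and N2 supplements and either 5 mM or 25 mM glucose, and 500000 dissociated cells went into each assay. H3K18La had 3 libraries and H3K27Ac had 2 libraries at each glucose level, all given the same batch in the labels. The methods call the replicates biological, but the labels do not say which animals or cultures a library came from, and p-values measure only the spread between these libraries. For the second mark the sample titles and methods name H3K27Ac, while one label field names an H3K9me3 antibody. In the 4 libraries titled H3K27Ac, log2(RPKM + 0.5) averaged 0.83 to 1.59 higher in promoter peaks than in other peaks, against 0.01 to 0.46 in the H3K18La libraries.

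Horizontal cells are inhibitory interneurons of the outer retina that feed back onto photoreceptor terminals. Ptf1a, a basic helix-loop-helix factor, directs progenitors towards horizontal and amacrine fates. Onecut1 and Onecut2 are homeodomain factors of horizontal and ganglion cells, Prox1 is a homeodomain factor needed for horizontal cell formation and also present in some amacrine and bipolar cells, Lhx1 is a LIM homeodomain factor that places horizontal cells in their layer, and Calb1 encodes the calcium buffer calbindin. H3K27Ac marks active promoters and enhancers. Lactylation of H3K18 is a histone mark tied to lactate, the product of glycolysis. Horizontal cells are a small share of retinal cells, and in such bulk material fewer cells carrying a mark and less of the mark per cell cannot be told apart.

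Signal is given in RPKM, read counts divided by peak length in kilobases and by the library total in units of 1000000 reads, and a locus RPKM is the mean over all peaks of a gene, weighted by width. The totals behind the RPKM values ranged from 1358008 to 7424470 reads. The share of those reads that fell in peaks was 11.8% to 12% for H3K18La at 5 mM and 31.2% to 35.0% at 25 mM. For H3K27Ac it was 21.1% to 31.5% at 5 mM and 56.5% to 69.5% at 25 mM. The median locus RPKM of all 25400 loci rose with it, from 0.823 to 1.51 for H3K18La and from 1.51 to 2.55 for H3K27Ac. All 26 member peaks together held 25 to 95 reads in an H3K18La library. For H3K27Ac they held 97 to 174 reads at 5 mM and 376 to 554 reads at 25 mM.

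The peaks on which the results turn are shown first, from the GRCm38 genome, in lower case with any motif searched in capitals. The motifs were GGGCGG (the GC box), ATTGAT and ATCGAT (ONECUT cores), TAATCC (the OTX and CRX core) and CAGCTG (an E-box), each on both strands. Member peaks were numbered within a gene from the lowest coordinate upwards. Prox1 peak 8, a promoter peak at chr1:190170357-190170926, was the one peak called higher at 25 mM glucose in both marks. Prox1 lies on the minus strand, and the part of the peak before the RefSeq start site, chr1:190170828-190170926, is printed in the sense of the gene. Prox1 peak 13 (chr1:190259564-190260291) and Prox1 peak 15 (chr1:190268965-190271297) were intergenic and had the lowest adjusted p-values for H3K27Ac. Prox1 peak 3 (chr1:190137709-190138491) lay in intron 4 and was the strongest non-promoter peak. For these 3 the central 300 bases are shown on the plus strand. Onecut1 peak 1 (chr9:74862043-74862974) begins 122 bases after the start site, and the first 150 coding bases within it are shown on the plus strand as a promoter with a lower mean of H3K27Ac at 25 mM that did not pass the test.
Prox1 peak 8, upstream part: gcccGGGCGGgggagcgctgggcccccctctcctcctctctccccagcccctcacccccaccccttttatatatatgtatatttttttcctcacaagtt
Prox1 peak 13, centre: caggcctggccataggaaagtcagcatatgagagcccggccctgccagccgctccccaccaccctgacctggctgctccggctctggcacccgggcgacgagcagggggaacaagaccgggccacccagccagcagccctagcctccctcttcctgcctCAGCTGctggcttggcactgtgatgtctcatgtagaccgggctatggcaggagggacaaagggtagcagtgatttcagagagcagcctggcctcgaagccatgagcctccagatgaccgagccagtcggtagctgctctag
Prox1 peak 15, centre: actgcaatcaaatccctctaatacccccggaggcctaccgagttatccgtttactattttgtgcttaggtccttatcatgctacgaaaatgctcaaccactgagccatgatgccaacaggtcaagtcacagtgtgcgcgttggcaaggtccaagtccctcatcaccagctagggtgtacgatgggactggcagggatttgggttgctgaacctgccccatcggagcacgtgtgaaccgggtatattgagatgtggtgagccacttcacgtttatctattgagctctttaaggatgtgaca
Prox1 peak 3, centre: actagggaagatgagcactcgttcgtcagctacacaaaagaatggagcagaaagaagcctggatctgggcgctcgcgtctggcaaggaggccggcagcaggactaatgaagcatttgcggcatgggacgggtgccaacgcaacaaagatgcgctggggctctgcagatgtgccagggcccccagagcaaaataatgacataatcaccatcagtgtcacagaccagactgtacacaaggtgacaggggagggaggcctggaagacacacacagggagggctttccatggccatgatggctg
Onecut1 peak 1, coding part: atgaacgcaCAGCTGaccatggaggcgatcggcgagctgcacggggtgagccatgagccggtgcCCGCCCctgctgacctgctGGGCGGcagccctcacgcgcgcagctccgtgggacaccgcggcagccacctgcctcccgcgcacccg

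The upstream part of Prox1 peak 8 held 1 GGGCGG and was 58.6% GC. Prox1 peak 13 held 1 CAGCTG at 64% GC, while Prox1 peak 15 at 50% GC and Prox1 peak 3 at 56% GC held none of the motifs in the printed windows. The coding part of Onecut1 peak 1 was 73.3% GC and held the GC box at 2 positions and the E-box at 1. Over the central 300 bases of all 26 member peaks, the E-box was found in 9, the GC box in 4, and each ONECUT core and the CRX core in 1. In windows of the same length, 44.8% of all 17144 promoter peaks held the GC box, 18.8% the E-box, 6.95% the CRX core, and 3.46% and 0.741% the first and the second ONECUT core. Of the 91109 other peaks, 20.9% held the E-box, 12.3% the CRX core, 5.54% the GC box, and 8.34% and 0.799% the first and the second ONECUT core. A match is only a run of letters. The first ONECUT core lay in Onecut1 peak 2, the second in Prox1 peak 16 and the CRX core in Onecut2 peak 4.

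By annotation, 10 of the 26 peaks were distal intergenic, 9 intronic, 3 in promoters, 2 in 3′ UTRs, 1 in a 5′ UTR and 1 in an exon. Promoters made up 11.5% of member peaks and 15.8% of all peaks. The annotated distance of the Prox1 peaks to the start site ran from 46167 bases (inside the gene) to -114805 bases (upstream). At 25 mM glucose, 18 of 26 member peaks lay under the median of all peaks for H3K18La and 13 of 26 for H3K27Ac. The highest mean among them at 25 mM was 2.80 RPKM for H3K18La (Prox1 peak 8) and 9.29 RPKM for H3K27Ac (Prox1 peak 7).

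**Figure D1:**
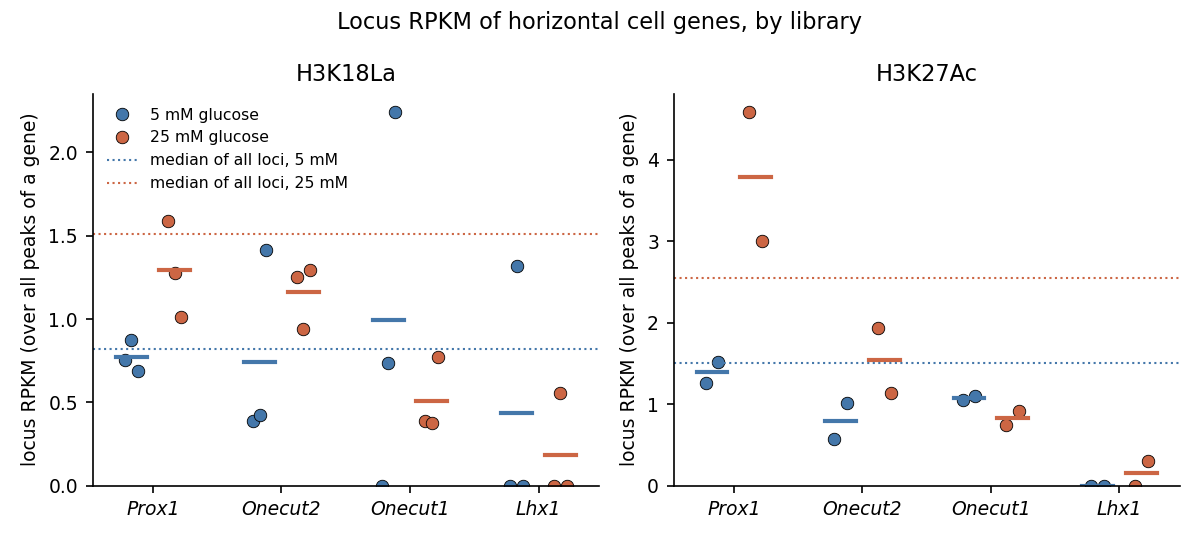
Locus RPKM (vertical axis, from 0, with a different scale in each panel) of the 4 genes with peaks, for H3K18La and H3K27Ac. Each circle is a library, each short bar a group mean, and dotted lines are medians of all 25400 loci. Prox1 is higher at 25 mM in every library of both marks, whereas Lhx1 is at 0 in 7 of 10 libraries.

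Prox1 had more RPKM at 25 mM glucose in every library of both marks, and the difference passed the test for H3K27Ac. For H3K18La the locus RPKM was 0.757, 0.873 and 0.686 in the 5 mM libraries and 1.59, 1.28 and 1.01 in the 25 mM libraries. All 25 mM libraries lay above all 5 mM libraries, with means of 0.772 ± 0.0944 and 1.29 ± 0.291 (SD, n = 3). The same separation was seen at 46.6% of all loci, and the opposite one at 0.906%. By limma across all loci, the log2 fold change of Prox1 was 0.48 ± 0.29 (SE) with an adjusted p of 0.172, and its 95% interval ran from -0.19 to 1.15. The locus passed the filter, a mean of 1 RPKM over the libraries of the mark, only through its 25 mM libraries, and without the filter the adjusted p was 0.170. The median change of all 14877 loci tested was 0.97, and 57.1% of them were called, 57.0% higher and 0.0807% lower.

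For H3K27Ac, the Prox1 locus had 1.26 and 1.52 RPKM at 5 mM and 4.59 and 3.00 RPKM at 25 mM. The groups did not overlap, as at 65.6% of all loci. The means were 1.39 ± 0.184 and 3.79 ± 1.12 (SD, n = 2). In the limma test the log2 fold change was 1.16 ± 0.33 (SE) with an adjusted p of 0.00308. Without a filter on low values the same fold change had an adjusted p of 0.0671. The locus change was close to the median of 1.01 over all 17544 loci tested, of which 62.5% were called, 62.2% higher and 0.279% lower. Without the first 25 mM library, the adjusted p rose to 0.294 at a log2 fold change of 0.89, and only 122 loci were called. The H3K27Ac fits took their spread from the trend over all loci or peaks alone, since the estimated prior degrees of freedom were infinite.

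**Figure D2:**
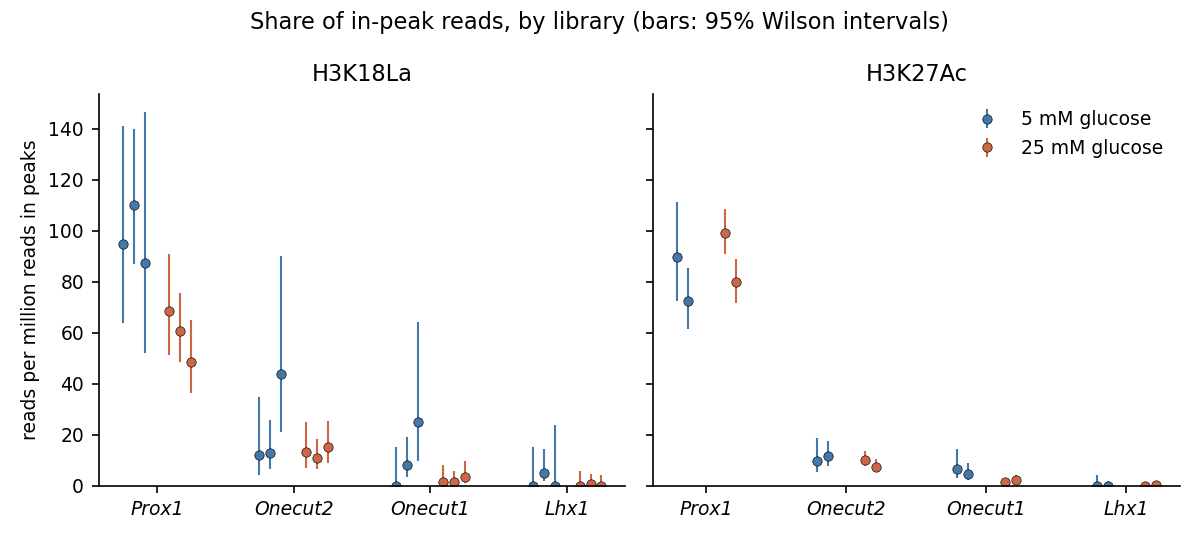
Reads of each locus per 1000000 reads in peaks (vertical axis) in every library, with 95% Wilson intervals for counting error, for the same 4 genes. The 3 H3K18La libraries at 25 mM sit below those at 5 mM for Prox1, while the H3K27Ac libraries overlap.

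Counted as a share of the reads in peaks, the picture for Prox1 differed. Per 1000000 in-peak H3K18La reads, Prox1 took 94.8, 110 and 87.3 at 5 mM and 68.4, 60.7 and 48.7 at 25 mM, so that every 25 mM library lay below every 5 mM library. The 95% counting intervals of the 5 mM libraries were 63.7 to 141, 87.0 to 140 and 52.0 to 146, and those of the 25 mM libraries 51.4 to 90.9, 48.6 to 75.7 and 36.4 to 65.1, so that some pairs of libraries overlapped within counting error and others did not. Such a lower share without overlap was seen at 18.3% of all loci, and a higher one at 6.13%. The exact two-sided permutation test gave p = 0.1, and no smaller value is possible with 3 libraries a group. The Prox1 shares of H3K27Ac were 89.8 and 72.5 at 5 mM and 99.3 and 79.9 at 25 mM, and the groups overlapped. Across all loci, 17.2% had a higher and 42.1% a lower H3K27Ac share without overlap. With libraries scaled to reads in peaks, the log2 fold change of Prox1 was -0.48 for H3K18La and 0.12 for H3K27Ac, with adjusted p of 0.412 and 0.771 by limma, and no locus was called in either mark. Which of the scales reflects the amount of mark was not tested.

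**Figure D3:**
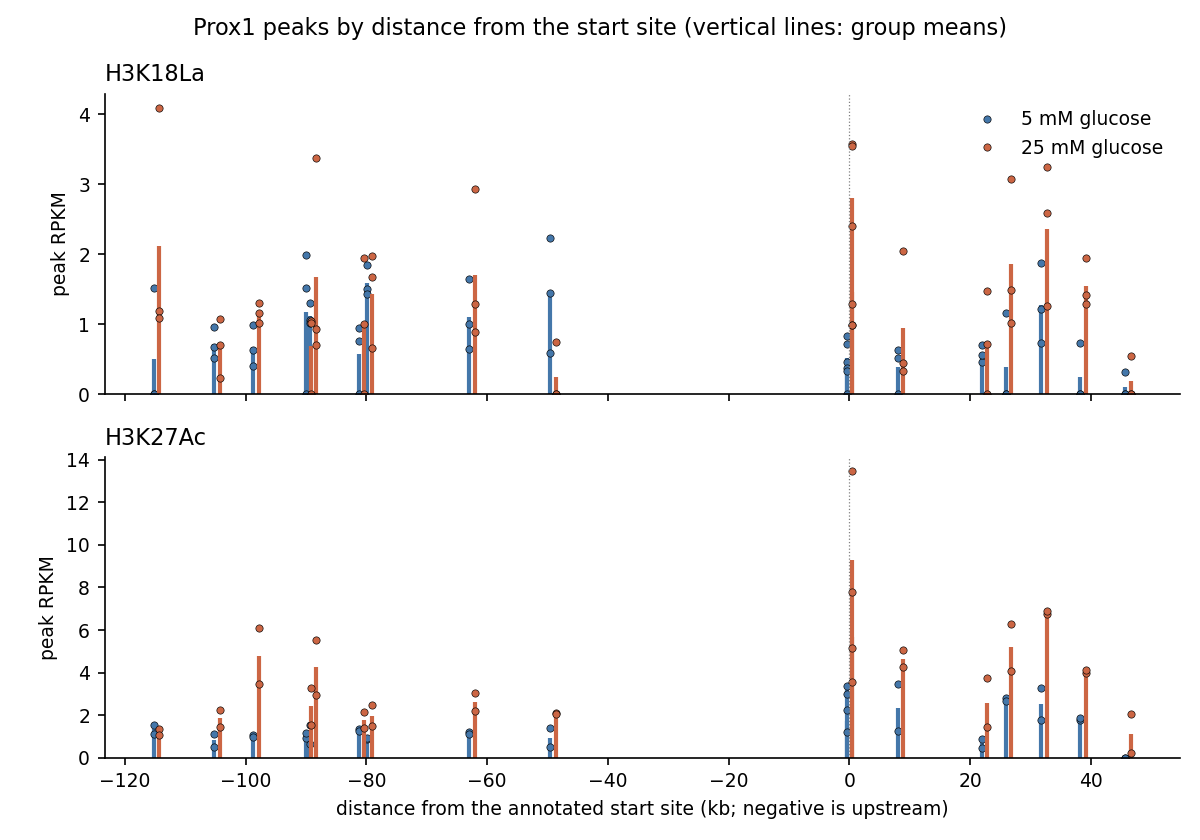
RPKM (vertical axes, from 0) of the 17 Prox1 peaks against distance from the annotated start site in kb. Circles are libraries and vertical lines group means, drawn slightly left (5 mM) and right (25 mM) of the true distance, and both promoter peaks share distance 0. For H3K27Ac 16 of 17 peaks have both 25 mM libraries on top, for H3K18La 4 of 17.

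The ratio of 25 mM to 5 mM signal varied along Prox1. Over both promoter peaks together, H3K18La was 0.595, 0.363 and 0.462 RPKM at 5 mM and 1.92, 2.01 and 1.90 RPKM at 25 mM, a ratio of group means of 4.10. In the limma fit of promoter peaks alone, the log2 fold change was 1.33 ± 0.44 (SE) with an adjusted p of 0.0311, where 40.1% of all loci were called. These peaks passed the filter of 1 RPKM only through their 25 mM libraries (group means of 0.474 and 1.94 RPKM), so the call is a description of peaks chosen in part by their change. Over the 6 other peaks within the gene, the ratio of H3K18La means was 2.34 and the groups did not overlap. Over the 9 intergenic peaks upstream, H3K18La was 0.811 to 1.06 RPKM at 5 mM and 0.892 to 1.36 RPKM at 25 mM, a ratio of 1.28 with overlapping groups. For H3K27Ac the ratios were 2.99 in the promoter, 2.47 in the gene and 2.80 upstream, without overlap in any of them. The division into these stretches was made after the values had been seen, and the difference between them was not tested. It left out the 4 nearest upstream peaks, which carry the symbol Prox1os. Of these, Prox1os peak 1 had mean H3K18La of 0.918 and 2.20 RPKM at 5 mM and 25 mM, without overlap. Its mean H3K27Ac was 2.78 and 9.70 RPKM, also without overlap. The H3K18La groups of the other Prox1os peaks overlapped.

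Prox1 peak 8, in the promoter, had 0 to 0.832 RPKM of H3K18La at 5 mM and 3.57, 1.29 and 3.55 RPKM at 25 mM. These values rested on 0 to 1 reads and 3 to 6 reads per library. Its log2 fold change was 1.91 ± 0.59 (SE) with an adjusted p of 0.0252 by limma, at the 87.0th percentile of all changes. The peak passed the filter of 1 RPKM only through its 25 mM libraries (group means of 0.390 and 2.80 RPKM), and without the filter its adjusted p was 0.0650. The call was also lost with a pseudocount of 0.1 (adjusted p = 0.0632), under each other scaling of the libraries (0.395 to 0.597), and without the second 5 mM library (adjusted p = 0.0521), the first 25 mM library (0.0992) or the third 25 mM library (0.113). For H3K27Ac the same peak had 1.22 and 2.26 RPKM at 5 mM and 7.80 and 3.54 RPKM at 25 mM. The log2 change there was 1.41 ± 0.42 (SE), with an adjusted p of 0.00732 by limma. The first exon of the antisense gene Prox1os overlaps this peak, so its reads cannot be assigned to one gene.

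Prox1 peak 7, the other promoter peak (chr1:190168447-190169469), was the strongest H3K27Ac peak of the set. It had 3.39 and 2.99 RPKM of H3K27Ac at 5 mM and 13.5 and 5.13 RPKM at 25 mM, and the log2 fold change was 1.27 with an adjusted p of 0.0219 by limma. Its H3K18La values were 0.377 to 0.720 RPKM at 5 mM and 0.989 to 2.40 RPKM at 25 mM, without overlap, but its mean was under the filter of 1 RPKM and it was not tested.

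Prox1 peak 15 carried the largest H3K27Ac change among the 21 member peaks tested. It had 1.09 and 0.966 RPKM of H3K27Ac at 5 mM and 6.08 and 3.46 RPKM at 25 mM, on 11 to 102 reads. The log2 fold change was 1.74 ± 0.42 (SE) with an adjusted p of 0.00134 by limma, at the 93.2th percentile. For H3K18La it had 0.406 to 0.992 RPKM at 5 mM and 1.01 to 1.31 RPKM at 25 mM, also without overlap, below the filter. Prox1 peak 13 had 0.635 and 1.55 RPKM of H3K27Ac at 5 mM and 5.54 and 2.96 RPKM at 25 mM, with an adjusted p of 0.00346 by limma. For H3K18La its log2 fold change was 0.21 with an adjusted p of 0.764 by limma.

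Prox1 peak 3, in intron 4, had the highest mean of the non-promoter peaks. H3K27Ac was 1.77 and 3.29 RPKM at 5 mM and 6.75 and 6.88 RPKM at 25 mM (log2 fold change 1.32 ± 0.44 (SE), adjusted p of 0.0144 by limma). H3K18La was 0.739 to 1.88 RPKM at 5 mM and 1.26 to 3.25 RPKM at 25 mM, with overlap and an adjusted p of 0.262. Prox1 peak 4 and Prox1 peak 17 had the next lowest adjusted p-values for H3K18La, 0.110 and 0.126, with log2 fold changes of 1.56 and 1.53. Both passed the filter only through their 25 mM libraries, with group means of 0.389 and 1.86 RPKM for the first and 0.508 and 2.12 RPKM for the second. Prox1 peak 17, the most distant one, was the only Prox1 peak whose H3K27Ac groups overlapped.

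**Figure D4:**
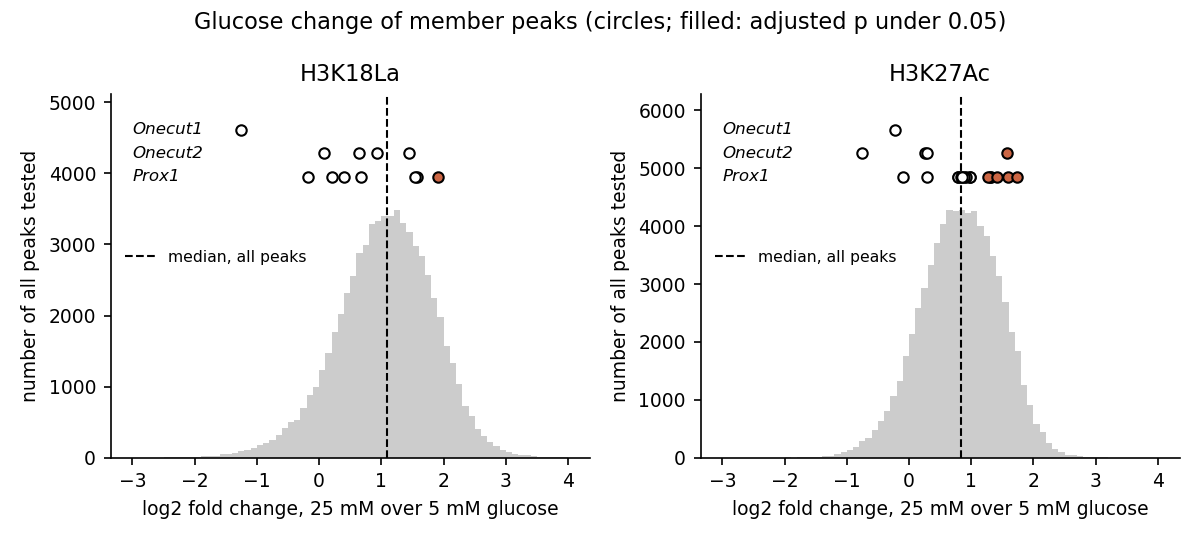
Log2 fold changes (horizontal axis) of the member peaks that passed the filter, as circles above a histogram of all peaks tested (number of peaks, vertical axis, with values past the ends put in the end bins). Filled circles passed an adjusted p of 0.05. For H3K18La most circles lie left of the dashed median of all peaks, for H3K27Ac they lie on both sides.

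Over all member peaks, 12 of 26 passed the filter of a mean of 1 RPKM for H3K18La, and 1 of the 12 was called higher and none lower. The background was 37.4% of 65614 peaks called, 37.3% higher and 0.0869% lower. The median log2 fold change of the 12 was 0.65, beside 1.10 for all peaks tested. For H3K27Ac, 21 of 26 passed the filter and 7 were called higher, with a background of 34.1% of 72442 peaks called, 33.9% higher and 0.164% lower. Their median was 0.89, beside 0.84 for all peaks tested. A peak could pass the filter through its 25 mM libraries alone, so these counts describe only the peaks that passed. Without the first H3K27Ac library at 25 mM, 0 of the 21 were called, and 10 of all peaks. Without the filter no H3K27Ac peak was called in limma, members included, although 31013 of all peaks had an unadjusted p under 0.05. The adjusted p was then 0.125 for Prox1 peak 15, 0.132 for Prox1 peak 13, 0.148 for Prox1 peak 8, 0.125 for Prox1 peak 3 and 0.178 for Prox1 peak 7.

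Read by overlap over all 26 peaks, the 25 mM libraries lay above the 5 mM libraries at 5 peaks for H3K18La and below at 0, where all peaks gave 36.6% and 0.821%. For H3K27Ac they lay above at 19 and below at 1, where all peaks gave 53.0% and 6.37%. Prox1 gave 16 of the 19, with all of its 17 peaks but Prox1 peak 17 on the higher side. These peaks share a locus and libraries and are not independent.

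Onecut2 changed less evenly than Prox1. Its locus RPKM of H3K18La was 0.390, 0.423 and 1.41 at 5 mM and 1.25, 0.943 and 1.29 at 25 mM, with the third 5 mM library above all others. For H3K27Ac it was 0.570 and 1.01 at 5 mM and 1.94 and 1.14 at 25 mM, without overlap. The H3K27Ac log2 fold change was 0.65 ± 0.35 (SE), with a 95% interval of -0.03 to 1.34 and an adjusted p of 0.0884 by limma. The locus passed the filter only through its 25 mM libraries (group means of 0.792 and 1.54 RPKM), and without the filter the adjusted p was 0.185. It turned to -0.21 when libraries were scaled to reads in peaks and to -0.37 when they were centred on their median. For H3K18La the locus mean was under the filter, and the fit without a filter gave 0.51 with a 95% interval of -0.40 to 1.42.

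None of the 6 Onecut2 peaks was annotated as a promoter, the nearest one lying 524 bases after the start site in an exon. Onecut2 peak 4, an intronic peak 5178 bases after the start site, was the only one called. It was singled out after its values were seen. Its H3K27Ac was 0.231 and 0.967 RPKM at 5 mM and 3.48 and 1.89 RPKM at 25 mM. The log2 change was 1.57 ± 0.51 (SE), with an adjusted p of 0.0121 by limma. This peak too passed the filter only through its 25 mM libraries (group means of 0.599 and 2.68 RPKM), and without the filter its adjusted p was 0.147. Its H3K18La groups overlapped, at 0 to 2.21 RPKM and 0.509 to 2.36 RPKM. Onecut2 peak 5, the strongest Onecut2 peak over all libraries, went the other way for H3K27Ac, with 1.5 and 3.14 RPKM at 5 mM and 1.35 and 0.875 RPKM at 25 mM. Its log2 fold change was -0.76 ± 0.46 (SE) with an adjusted p of 0.184 by limma, on 2 to 6 reads per library.

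Onecut1 held few reads in both marks, and its locus mean was under the filter in both, so it was not tested as a locus. Its H3K18La mean lay at percentile 62.6 of all loci at 5 mM and 13.3 at 25 mM. Its H3K27Ac mean lay at 38.9 and 24.2. Its 2 peaks gave an H3K18La locus RPKM of 0, 0.734 and 2.24 at 5 mM and of 0.387, 0.374 and 0.770 at 25 mM. The H3K27Ac values were 1.06 and 1.10 at 5 mM and 0.741 and 0.923 at 25 mM, so both 25 mM libraries lay below both 5 mM libraries, as at 5.75% of all loci. The locus held 6 to 9 reads in an H3K27Ac library and 0 to 5 in an H3K18La library. In the fit without a filter, the H3K27Ac log2 fold change was -0.25 with a 95% interval of -0.86 to 0.37 and an adjusted p of 0.459 by limma. The H3K18La log2 fold change was -0.26 with an interval of -1.81 to 1.29 and an adjusted p of 0.786.

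Onecut1 peak 1, the promoter peak, had 0.992 and 1.38 RPKM of H3K27Ac at 5 mM and 0.746 and 1.16 RPKM at 25 mM, with overlapping groups. Its log2 fold change was -0.22, at the 5.50th percentile of all peaks tested, with an adjusted p of 0.770 by limma and a 95% interval of -1.32 to 0.88. Its H3K18La was 0 to 0.790 RPKM at 5 mM and 0.528 to 0.724 RPKM at 25 mM. Onecut1 peak 2, in the intron, had 0, 1.01 and 5.78 RPKM of H3K18La at 5 mM and 0, 0 and 0.883 RPKM at 25 mM. The value of 5.78 RPKM stood for 3 reads in the shallowest library, and the adjusted p was 0.337 by limma.

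Lhx1 had at most 3 reads in its single peak, in the 3′ UTR at chr11:84519525-84519964. One H3K18La library at 5 mM held 3 reads there (1.32 RPKM), one at 25 mM held 1 read (0.559 RPKM), one H3K27Ac library at 25 mM held 1 read (0.306 RPKM), and the other 7 libraries held 0. A count of 0 allows up to 3 reads, and no fold change is given. By level, the loci ranked Prox1, Onecut2, Onecut1, Lhx1 for H3K27Ac at 25 mM, with means of 3.79, 1.54, 0.832 and 0.153 RPKM. Prox1 lay above the other 3 in both libraries, and the libraries of Onecut2 lay above those of Onecut1. At 5 mM the order of Onecut2 and Onecut1 was reversed, at 0.792 and 1.08 RPKM. In H3K18La the libraries of Prox1, Onecut2 and Onecut1 at 5 mM overlapped.

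Several nearby peaks were annotated to antisense genes and not to the members. Prox1os had 4 peaks, Lhx1os had 4 and Ptf1aos had 1. The Ptf1aos peak (chr2:19447890-19448848) lay past the 3′ end of Ptf1a. Its H3K18La was 0.989, 1.81 and 0 RPKM at 5 mM and 1.59, 6.67 and 7.03 RPKM at 25 mM, a log2 fold change of 2.01 with an adjusted p of 0.0304 by limma over peaks. The groups overlapped through the first 25 mM library. The peak passed the filter only through its 25 mM libraries (group means of 0.933 and 5.10 RPKM), and without the filter its adjusted p was 0.111. Fitted as a locus, the same peak had an adjusted p of 0.0382, or 0.0865 without the filter. This rose to 0.0851 at a log2 fold change of 1.38 without the third 5 mM library, to 0.0607 without the first 5 mM library, and to 0.109 and 0.108 without the second or the third 25 mM library. Its H3K27Ac was 1.45 and 2.35 RPKM at 5 mM and 4.20 and 2.67 RPKM at 25 mM, with an adjusted p of 0.167. Lhx1os peak 2 (chr11:84539738-84540951) had 0.391 to 1.27 RPKM of H3K18La at 5 mM and 2.51 to 6.39 RPKM at 25 mM, a log2 fold change of 1.80 with an adjusted p of 0.0128 by limma. It passed the filter only through 25 mM as well (group means of 0.756 and 3.98 RPKM), and its adjusted p without the filter was 0.0383. Lhx1os peak 1 (chr11:84534202-84534661) went the other way, with 2.06, 1.26 and 1.60 RPKM of H3K18La at 5 mM and 0, 0.535 and 0.733 RPKM at 25 mM. Its log2 fold change was -1.30 with an adjusted p of 0.121 by limma, and its groups did not overlap, as at 0.821% of all peaks. The values rested on 0 to 3 reads per library. This peak passed the filter only through its 5 mM libraries (group means of 1.64 and 0.423 RPKM). The H3K18La groups of the other 2 Lhx1os peaks overlapped. With antisense peaks joined to the members, a choice made after seeing the data, the H3K18La log2 fold changes were 2.01 for Ptf1a, 0.68 for Lhx1 and 0.54 for Prox1, with adjusted p of 0.0382, 0.0420 and 0.130 by limma. The Ptf1a value is that of the single Ptf1aos peak. Each of these joined loci passed the filter only through its 25 mM libraries. Most 25 mM reads of the joined Lhx1 locus lay in Lhx1os peak 2. The median of all loci was 0.97 in that fit and 57.1% were called.

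The difference between the marks in the response to glucose could not be resolved for any locus or peak. The log2 fold change of H3K27Ac minus that of H3K18La was 0.68 ± 0.37 (SE) for the Prox1 locus, with a 95% interval of -0.15 to 1.50 and an adjusted p of 0.704 by limma. For Onecut2 it was 0.14 ± 0.56 (SE), with an interval of -1.11 to 1.40. Among member peaks the difference was largest at Prox1 peak 9, an intergenic peak of 0 to 5 reads per library, at 2.31 ± 0.91 (SE) with an interval of 0.36 to 4.26, an unadjusted p of 0.0231 and an adjusted p of 0.903 by limma. In this test 0 of 17359 loci and 0 of 72467 peaks were called (0% of either), although 1239 loci and 3650 peaks had an unadjusted p under 0.05. In single-value tests of the 8 pairs of locus and mark, the smallest possible exact permutation p was 0.1 for H3K18La and 0.33 for H3K27Ac. Prox1 reached both, and all adjusted p-values were 0.64 or more.

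**Figure D5:**
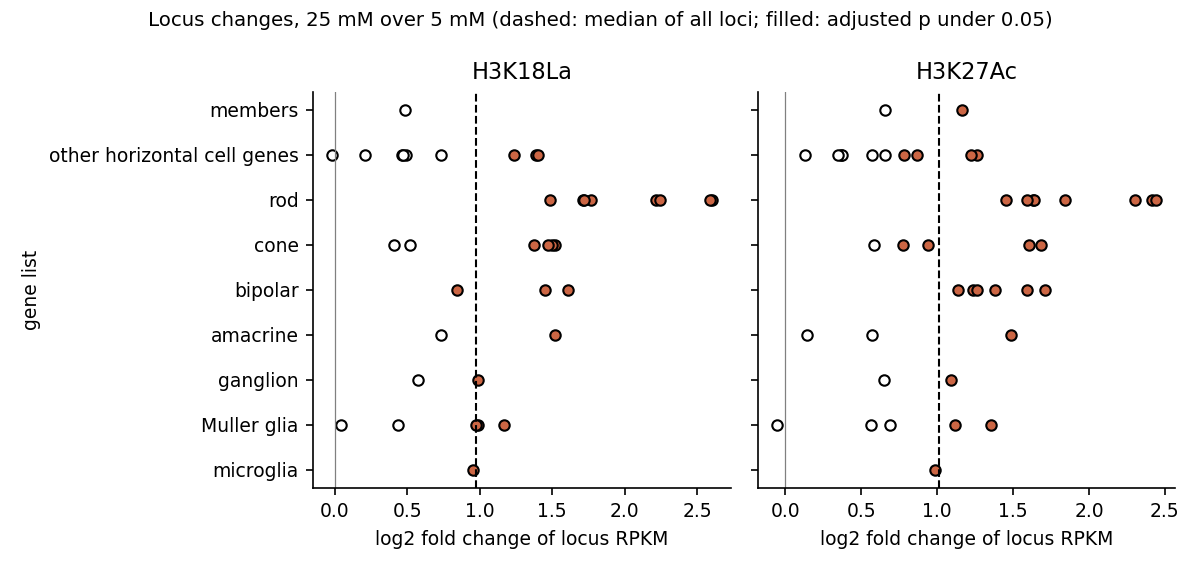
Log2 fold changes of locus RPKM, 25 mM over 5 mM glucose (horizontal axis), by gene list. Each circle is a locus that passed the filter, filled where the adjusted p was under 0.05, and the dashed line is the median of all loci tested. Rod loci lie right of the dashed line in both marks, and most horizontal cell loci lie left of it.

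Other genes of horizontal cell development and function were read from the same locus fits. Of 20 such genes, 17 had a peak and 9 passed the filter for H3K18La, of which 3 were called higher and 0 lower, where 57.0% of all loci tested were called higher. These were Megf11, a receptor that spaces horizontal cells (log2 fold change 1.40), Rorb, a nuclear receptor of retinal fate (1.39), and Nefh, the heavy neurofilament chain (1.24), with adjusted p of 0.000404, 0.000690 and 0.00469 by limma. For H3K27Ac 10 passed and 4 were called higher, where 62.2% of all loci were, namely Rorb (1.26), Nefh (1.22), Foxn4 (0.87) and Atoh7 (0.78), the last pair being factors of retinal progenitors. Foxn4 passed the filter only through its 25 mM libraries (group means of 0.799 and 1.80 RPKM). The list medians were 0.49 for H3K18La and 0.61 for H3K27Ac, beside 0.97 and 1.01 over all loci tested. Slc32a1, the vesicular GABA transporter, had -0.02 and 0.37, and Pax6 had 0.73 and 0.57, and none of these passed the test. Rorb, Nefh, Megf11, Foxn4, Atoh7 and Pax6 are not particular to horizontal cells.

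Markers of the other retinal cells were read the same way. All 8 rod genes were called higher in both marks, with medians of 1.99 for H3K18La and 1.74 for H3K27Ac. Without the filter 0 of 25400 loci were called for H3K27Ac, rods included. Rod loci lay at a median percentile of 97.0 among all loci for H3K27Ac at 25 mM, and the 4 members with peaks at 31.2. Amacrine loci lay at 31.0, microglia at 31.9 and ganglion at 33.3, so a low level was not particular to the members. Muller glia, cone and bipolar loci lay at 49.1, 54.2 and 67.5. Of the loci that passed the filter, 4 of 6 cone, 3 of 3 bipolar, 1 of 2 amacrine, 1 of 2 ganglion, 3 of 5 Muller glia and 1 of 1 microglia loci were called higher for H3K18La, where 57.0% of all loci were. For H3K27Ac the counts were 4 of 5, 6 of 6, 1 of 3, 1 of 2, 2 of 5 and 1 of 1, where 62.2% of all loci were called higher. None was called lower. A locus could pass the filter through its 25 mM libraries alone, and 6 of the 21 H3K18La calls (Aqp4, Arr3, Gnat1, Gnat2, Slc1a3 and Trpm1) and 4 of the 23 H3K27Ac calls (Cabp5, Gnat2, Gngt2 and Thy1), rods included, had a 5 mM mean under 1 RPKM, so these counts describe only the loci that passed. Gad1, Tfap2b and Pax6 stood in both the amacrine and the horizontal cell lists. The part of other cell types in the member signal was not tested.

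The loci whose profile over the 10 libraries was most like each member were found by Pearson correlation of log2(locus RPKM + 0.5), as a description. For Prox1 these were Spata5 (r = 0.991) and Kcnh5 (r = 0.989), and 2531 of the 7984 loci compared had r above 0.9 with Prox1. For Onecut2 they were Gm23406 (0.923) and Ret (0.921), with 8 loci above 0.9. For Onecut1 they were 9530080O11Rik (0.876) and Stx17 (0.820), and for Lhx1 Gm29482 (0.696) and Gm32552 (0.540), with none above 0.9. The points share mark, depth and glucose level, which separate the libraries.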

How the data were processed

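CUT&Tag of H3K18La (6 libraries) and H3K27Ac (4 libraries) was analysed from the processed values. According to the methods, the authors aligned reads to GRCm38 with nf-core/cutandrun, called peaks with MACS and removed blacklisted regions. They annotated peaks with ChIPseeker 1.34.1 (promoter from 1000 bases before to 500 after the start). They counted reads with csaw over consensus peaks merged from retinas of 3 ages and deposited RPKM. By their number these peaks are those of H3K18La. A second deposited table holds the authors' own fold changes and p-values and was not used. The members and gene lists were chosen with earlier results of these data known.

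Groups came from the sample titles. RPKM values were whole multiples of 1 read (100% within 0.01), which gave reads per peak. The median was 1 to 11 reads per peak. Values were tested as log2(RPKM + 0.5) by limma (version 3.58.1, R 4.3.3) with an intensity trend, for peaks or loci with a mean of at least 1 RPKM in the mark, with Benjamini-Hochberg adjustment over all of them at 0.05. Fold changes on this scale understate changes of low values. Single loci were compared by exact two-sided permutation, adjusted over 8 tests. Named peaks were the strongest promoter and other peak per locus and the 3 lowest adjusted p-values per mark. Scripts were tested on simulated data. Wilson intervals (95%) and floors of 3 reads cover counting error only. Sequences came from GRCm38 and RefSeq. Python 3.11.15 was used. Same-numbered libraries did not deviate together (r of 0.0076 to 0.031), so numbers were not treated as pairs. Alternatives covered pseudocount, filter, scaling, moderation, voom on recovered reads, replicate block, omitted libraries and the peaks of a locus.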

Additional observations from a re-analysis of the deposited data

How the results depend on the processing

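On RPKM, 1 member peak was called for H3K18La and 7 for H3K27Ac, and 0 and 1 member loci. For H3K18La peaks the count was 0 with a threshold of 0.01, a pseudocount of 0.1 or no filter, and 3 with voom on recovered reads. In these fits 12370 and 18947 of all 65614 peaks, 18390 of 108253 without the filter, and 29676 of 65614 with voom were called. For H3K27Ac peaks the member count was 3 at 0.01 and 0 without a filter, where 9840 of 72442 and 0 of 108253 were called. Centring on the median, scaling to reads in peaks and quantile normalization each gave 0 called members for peaks and loci of both marks, and 0 of the other horizontal cell genes in place of 3 and 4. Over all peaks these 3 scalings called 1040, 0 and 0 for H3K18La in place of 24539, and 1144, 0 and 0 for H3K27Ac in place of 24698. They moved the median change of all H3K18La loci from 0.97 to 0.13, -0.10 and 0.03, and the Prox1 H3K18La locus to -0.36, -0.48 and -0.31. Prox1 peak 3 went to -0.24, -0.43 and -0.19 for H3K18La, and Onecut2 peak 5 to -0.14 under quantile normalization. The Onecut2 H3K27Ac locus went to -0.37 (centred) and -0.21 (reads in peaks). The 4 non-overlapping pairs of locus and mark became 2, both lower, as shares of in-peak reads.

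Promoter peaks alone and voom each called 1 H3K18La locus (Prox1), where 40.1% and 62.7% of all loci were called. Joined antisense peaks (chosen after seeing the data) called 2 (Lhx1 and Ptf1a), where 57.1% of all loci were called. Centred, scaled to reads in peaks and quantile normalized, the Lhx1os locus went to -0.10, -0.30 and -0.04 for H3K18La. The Ptf1aos locus went to 1.17, 1.04 and 0.75 and was no longer called. For H3K27Ac, no filter called 0 member loci, 0 of the other genes and 0 of all peaks (31013 at an unadjusted p under 0.05). Promoter peaks alone called 2 other genes, where 66.1% of all loci were called. With the replicate block, 4 H3K27Ac member peaks and 0 other genes were called, and no further count changed by over 1.5 times among members. Over all features, calls for H3K27Ac fell to 7897 peaks and 1069 loci.

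Without 1 library at a time, called peaks ranged from 0 to 1 for H3K18La and from 0 to 9 for H3K27Ac, called loci were 0 for H3K18La and 0 to 2 for H3K27Ac, other genes ranged from 3 to 4 and 0 to 5, and non-overlapping pairs from 4 to 5. Over all H3K18La features, calls then ranged from 15440 to 24137 of 65614 peaks and from 6610 to 7857 of 14877 loci. Leaving out an H3K27Ac library leaves 1 in its group, which is assumed to vary like the rest. The H3K27Ac member counts rose and fell with the calls over all features, so their range is not particular to the members. The Onecut2 difference between marks turned to -0.10 (centred), -0.11 (voom) and -0.22, -0.11 and -0.14 without the third H3K18La library at 5 mM, the first H3K27Ac library at 5 mM or at 25 mM, and ranged up to 0.43 when single libraries were left out. A minimum of 2 RPKM left no member for H3K18La. Depth limits the H3K18La peak values, which rested on at most 12 reads a library.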
